A study of Mus musculus with 9 samples.

Results

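The genes described here are the receptor chains, the STAT and the interferon regulatory factors through which a cell receives and relays an interferon signal: Ifnar1, Ifnar2, Ifngr1, Ifngr2, Stat2, Irf1, Irf7, Irf8 and Irf9. They were chosen by name, 9 of the 54532 genes in the count table, and were followed across cultured adipose-derived stem cells (ASCs) of 3 mouse fat depots. The question was whether the receptors, or only the factors downstream of them, differed between depots. Bulk mRNA sequencing covered 9 libraries, 3 for each depot: subcutaneous fat gave the Sub-ASCs, abdominal fat the Ab-ASCs, and the fat around vessels the PVASCs. All came from C57BL/6 mice, were grown in stem cell medium for several passages and received no stated treatment or genetic change, and the age and sex of the mice were not given in the sources used here. Nothing in the labels says whether the libraries of a group came from separate animals or cultures, so that the p-values measure only the spread between these libraries.

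Type I interferons (the alpha and beta family) bind a receptor made of IFNAR1 and IFNAR2, and interferon gamma binds a receptor made of IFNGR1 and IFNGR2. The Janus kinases attached to these chains phosphorylate STAT proteins. STAT2 and IRF9 are parts of the complex ISGF3, which binds the interferon-stimulated response element (ISRE), whereas interferon gamma acts through STAT dimers at the gamma-activated site (GAS). IRF1, IRF7 and IRF8 are transcription factors of the same family as IRF9 and are themselves interferon-inducible genes, whereas the receptor chains are present in most cell types.

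To show what the listed promoters hold, both elements were searched as plain letters in the RefSeq promoters of build GRCm38.p6, each running from 250 bases before the RefSeq start of the gene to 50 bases after it. The ISRE core was taken as GAAANNGAAA, read on the other strand as TTTCNNTTTC, and the GAS core as TTCNNNGAA, which reads alike on both strands. Among 32851 promoters, 3.44% held the ISRE core and 8.3% the GAS core. Counted by gene, 3.99% and 9.55% of 27025 genes had a promoter with it. The promoters of 8 members were searched, with 2 promoters each for Irf1, Irf8 and Irf9. Counted by gene, 1 of the 8 had an ISRE core and 3 had a GAS core, and in the other windows these letters were not found. The stretches with a match are given 5′ to 3′ on the plus strand, with the match in capitals, because 3 belong to factors and 1 to a receptor chain. They lie at chr10:128270252-128270309 for Stat2, chr11:53769900-53769956 for Irf1, chr8:120736163-120736237 for Irf8 and chr16:91372545-91372601 for Ifnar2.
Stat2: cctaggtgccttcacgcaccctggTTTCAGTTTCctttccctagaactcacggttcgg
Irf1: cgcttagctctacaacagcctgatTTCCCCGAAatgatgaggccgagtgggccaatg
Irf8: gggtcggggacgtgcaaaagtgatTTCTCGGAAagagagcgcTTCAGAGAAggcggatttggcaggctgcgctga
Ifnar2: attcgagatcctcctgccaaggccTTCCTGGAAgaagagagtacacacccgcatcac
The capitals in Stat2 are the ISRE core, beginning 222 bases before the RefSeq start, and those in the other 3 are GAS cores. The GAS core of Irf1 began 90 bases before the start, and those of Irf8 171 and 153 bases before it. The match of Ifnar2 began 214 bases upstream. The RefSeq start equalled the gene start of the count table for Irf1, Irf8 and Ifnar2, and for Stat2 it lay at chr10:128270498, 61 bases upstream of the count table start. A match is a string of letters and not a measured binding site.

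The libraries held 23781019 to 26872579 counted reads in Sub-ASCs, 20524173 to 23832828 in Ab-ASCs and 27136829 to 29881036 in PVASCs, and 16526 genes passed the filter on low counts. Levels are given as CPM, the reads of a gene scaled to the same total in every library, after TMM scaling, a correction for library composition. The first Ab-ASC library stood apart from the others of its group, with a chi-square of 29.3 and 18.5 per degree of freedom against them where the other pairs of a group gave 2.92 to 8.09. The label was checked against 8 markers of adipose stem cells, which were all detected in every group, with sums of 6790 to 6890 CPM in Sub-ASCs, 1350 to 1470 in Ab-ASCs and 2150 to 2240 in PVASCs. In PVASCs 6 of the 8 were lower than in Sub-ASCs and 2 were higher, and in Ab-ASCs 7 were lower and 1 was higher, where 70.4% and 75.3% of all genes were called. Ly6a, which encodes the stem cell antigen Sca1, was at 2050 ± 115 CPM in Sub-ASCs, 21.8 ± 3.42 in Ab-ASCs and 111 ± 4.45 in PVASCs (SD, n = 3 here and throughout). Pi16, a marker of early adipose progenitors, was at 854 ± 28.3, 7.91 ± 0.949 and 5.35 ± 0.0794 CPM, and Dpp4, another of that kind, at 71 ± 1.91, 8.5 ± 2.01 and 1.39 ± 0.245. The markers that were higher, named after their values were seen, were Thy1, at 332 ± 11.4, 231 ± 24.2 and 883 ± 19.1 CPM and higher in PVASCs alone, and Eng, at 108 ± 4.48, 145 ± 10.1 and 328 ± 10.6 CPM and higher in both. So much of the transcriptome differed between groups that a call alone says little, and each count of members is set beside the share of all genes called.

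Receptors and factors both differed between depots, and against Sub-ASCs the factors differed by more. All 9 members differed among the 3 groups, as did 84.6% of the genes tested (edgeR quasi-likelihood test, Benjamini-Hochberg adjusted p under 0.05). Against Sub-ASCs, the 5 factors were lower in both other depots, by 3.88 to 34.9 times in PVASCs and by 5.56 to 29.1 times in Ab-ASCs. Among the 4 receptor chains, Ifnar1, Ifnar2 and Ifngr1 were lower by 1.23 to 3.31 times over both comparisons, and Ifngr2 was higher in both. In PVASCs, Irf8 (3.97 times) and Irf9 (3.88 times) lay close to Ifnar2 (3.31 times). Between PVASCs and Ab-ASCs, the sizes of the differences overlapped between chains and factors. Summed over the chains, receptor CPM was 471 to 484 in Sub-ASC libraries, 378 to 425 in Ab-ASC libraries and 321 to 322 in PVASC libraries. Summed over the factors, it was 897 to 938 in Sub-ASCs, 52.5 to 64.6 in Ab-ASCs and 65.6 to 67.2 in PVASCs. In bulk RNA, fewer expressing cells and less RNA per cell cannot be told apart.

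**Figure D1:**
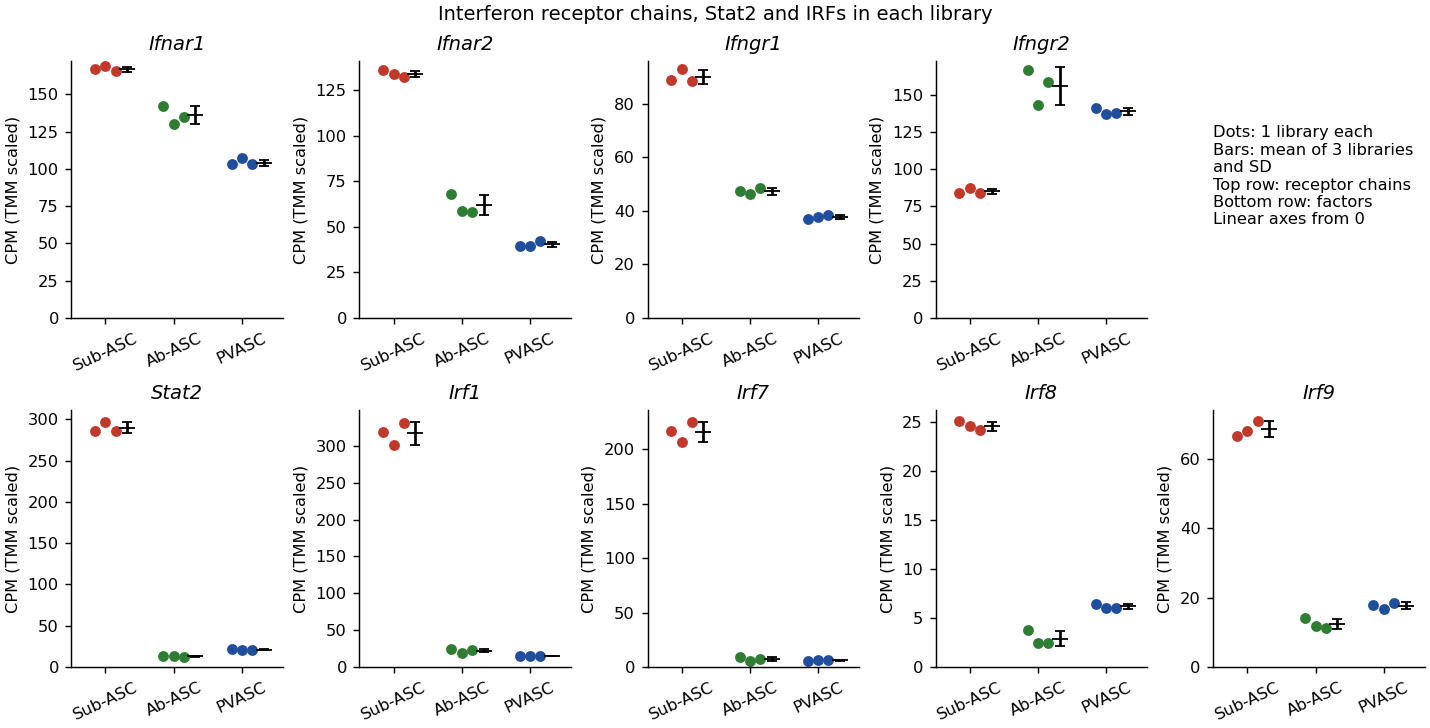
TMM-scaled CPM (linear axes from 0) of the 9 members in each library, with receptor chains above and factors below; dots are libraries and bars the mean and SD of 3. The 5 factors sit far above the other depots in every Sub-ASC library, whereas Ifngr2 is lowest there.

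Ifnar1 (chr16:91485238-91507441, plus strand) encodes the type I chain that binds the kinase TYK2. It was at 167, 169 and 166 CPM in the Sub-ASC libraries, 142, 130 and 135 in Ab-ASCs, and 103, 107 and 103 in PVASCs. The 3 groups did not overlap, and the span from highest to lowest was narrow. The log2 fold change was -0.68 ± 0.05 (SE) for PVASC against Sub-ASC (adjusted p = 9.47e-08), -0.30 ± 0.05 for Ab-ASC against Sub-ASC (adjusted p = 0.000147), and -0.38 ± 0.05 for PVASC against Ab-ASC (adjusted p = 5.78e-05).

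Ifnar2 (chr16:91372783-91405589, plus strand) encodes the other type I chain, which carries most of the ligand binding and also exists in a soluble form. Reads were counted per gene, so that the membrane and soluble forms were summed. Its levels were 136, 134 and 132 CPM in Sub-ASCs, 68, 58.8 and 58.3 in Ab-ASCs, and 39.6, 39.5 and 42.1 in PVASCs. The groups again did not overlap, and of the receptor chains Ifnar2 was the one that differed most from Sub-ASCs. It was lower by 3.31 times in PVASCs (log2 fold change -1.73 ± 0.07, adjusted p = 1.62e-10) and by 2.17 times in Ab-ASCs (-1.12 ± 0.07, adjusted p = 9.34e-09). PVASCs were below Ab-ASCs by 0.61 on the log2 scale, a fold change of -0.61 ± 0.07 (adjusted p = 1.12e-05).

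Ifngr1 (chr10:19591949-19610229, plus strand) encodes the ligand-binding chain for interferon gamma. It stood at 89, 93.2 and 88.5 CPM in Sub-ASCs, 47.3, 46.2 and 48.6 in Ab-ASCs, and 37.1, 37.6 and 38.6 in PVASCs. Every Sub-ASC library was above every other library, and Ab-ASCs were above PVASCs. The log2 fold changes were -1.26 ± 0.05 (adjusted p = 4.37e-10) for PVASC against Sub-ASC, -0.93 ± 0.05 (adjusted p = 8e-09) for Ab-ASC against Sub-ASC, and -0.33 ± 0.05 (adjusted p = 0.000317) for PVASC against Ab-ASC.

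Ifngr2 (chr16:91547072-91565623, plus strand), the signalling chain for interferon gamma that recruits JAK2, went the other way. It was at 84.1, 87.3 and 84.1 CPM in Sub-ASCs, 167, 143 and 159 in Ab-ASCs, and 141, 137 and 138 in PVASCs. Sub-ASCs were lowest without overlap. The gene was higher in PVASCs by 1.63 times (log2 fold change 0.71 ± 0.06, adjusted p = 4.42e-07) and in Ab-ASCs by 1.83 times (0.88 ± 0.06, adjusted p = 5.41e-08). The difference between PVASCs and Ab-ASCs, -0.17 ± 0.06 (adjusted p = 0.032), was small. It missed the threshold in 11 of 16 alternative analyses and changed sign to 0.06 in FPKM, the reads of a gene per unit of its length and of the library total, which has no TMM scaling. In FPKM the other chains also differed by less between PVASCs and Ab-ASCs, with log2 ratios of -0.15 for Ifnar1, -0.38 for Ifnar2 and -0.1 for Ifngr1. Ifnar2, Il10rb, Ifnar1 and Ifngr2 lie in this order on chromosome 16, and Il10rb is described with the type III receptor.

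The balance between the chains of each receptor differed by depot. Per length, in FPKM, the ratio of Ifngr2 to Ifngr1 was 0.714, 0.708 and 0.718 in Sub-ASCs, 2.68, 2.34 and 2.47 in Ab-ASCs, and 2.88, 2.76 and 2.71 in PVASCs. By the gene lengths listed with the counts, Ifngr1 was thus the more abundant mRNA in every Sub-ASC library and Ifngr2 in every other library. The ratio of Ifnar2 to Ifnar1 was 1.45, 1.41 and 1.42 in Sub-ASCs, 0.854, 0.806 and 0.771 in Ab-ASCs, and 0.684, 0.66 and 0.728 in PVASCs. Here, by the listed lengths, Ifnar2 was the more abundant mRNA only in Sub-ASCs among the 3 groups. These are ratios of mRNA, and receptor protein was not measured in these data.

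**Figure D2:**
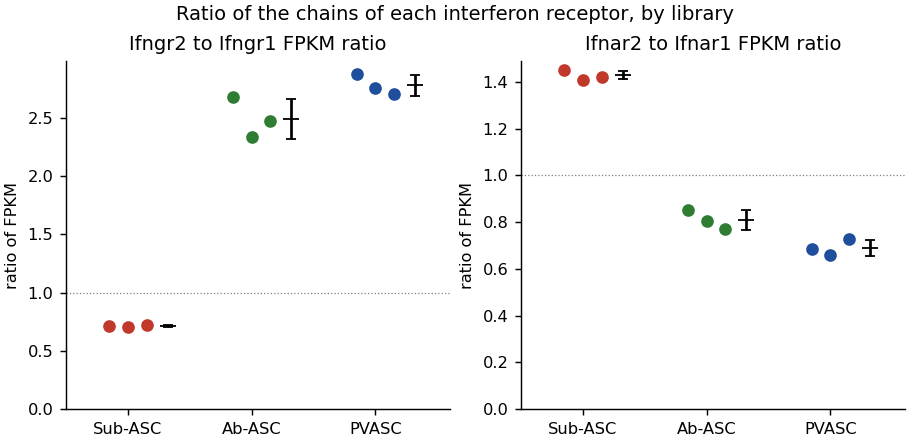
Ratio of FPKM between the chains of the interferon gamma receptor (left) and the type I receptor (right) in each library; dots are libraries, bars the mean and SD of 3, and the dotted line equal levels. Sub-ASCs lie on the opposite side of the line from Ab-ASCs and PVASCs in both panels, at 0.713 against 2.49 and 2.78 on the left and 1.43 against 0.81 and 0.691 on the right.

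Stat2 (chr10:128270559-128292849, plus strand) encodes the STAT particular to ISGF3. It was at 286, 297 and 286 CPM in Sub-ASCs, 13.2, 12.8 and 12.7 in Ab-ASCs, and 21.6, 21.2 and 20.7 in PVASCs. The 3 groups were widely separated and each was tight. Stat2 was lower by 13.7 times in PVASCs (log2 fold change -3.77 ± 0.05, adjusted p = 4.01e-14) and by 22.5 times in Ab-ASCs (-4.49 ± 0.06, adjusted p = 1.51e-14). PVASCs were above Ab-ASCs by 0.72 ± 0.06 on the log2 scale (adjusted p = 5.98e-07).

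Irf9 (chr14:55603571-55610030, plus strand) encodes the DNA-binding partner of STAT2 in that complex. Its levels were 66.7, 68.1 and 71.1 CPM in Sub-ASCs, 14.1, 11.8 and 11.2 in Ab-ASCs, and 17.9, 16.6 and 18.5 in PVASCs. The order of the depots was that of Stat2, without overlap, over a smaller range. The log2 fold changes were -1.96 ± 0.08 (adjusted p = 2.7e-10) for PVASC against Sub-ASC, -2.48 ± 0.09 (adjusted p = 5.31e-11) for Ab-ASC against Sub-ASC, and 0.52 ± 0.09 (adjusted p = 0.000336) for PVASC against Ab-ASC. The gene shares 123 bases with Rnf31 on the same strand, which had 323 to 1442 reads, so that part of the reads could belong to either.

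Irf1 (chr11:53770014-53778374, plus strand) encodes an activator induced by interferon gamma and by inflammatory cytokines. It was at 319, 301 and 331 CPM in Sub-ASCs, 24.2, 19.7 and 22.5 in Ab-ASCs, and 15.3, 15 and 15.3 in PVASCs. Unlike Stat2 and Irf9, it was lowest in PVASCs. The fall against Sub-ASCs was 20.9 times in PVASCs (log2 fold change -4.38 ± 0.08, adjusted p = 1.61e-13) and 14.4 times in Ab-ASCs (-3.84 ± 0.08, adjusted p = 3.81e-13). The log2 fold change of PVASC against Ab-ASC was -0.54 ± 0.08 (adjusted p = 9.83e-05). An antisense gene, Gm17334, overlaps 907 bases of Irf1 and had 1 to 64 reads.

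Irf7 (chr7:141262706-141266481, minus strand) encodes the factor that amplifies type I interferon production. It was at 217, 207 and 225 CPM in Sub-ASCs, 9.45, 5.82 and 7.22 in Ab-ASCs, and 5.9, 6.71 and 6.01 in PVASCs. Ab-ASCs and PVASCs overlapped far below Sub-ASCs. Irf7 was the member that differed most from Sub-ASCs, by 34.9 times in PVASCs (log2 fold change -5.12 ± 0.13, adjusted p = 2.3e-12) and 29.1 times in Ab-ASCs (-4.86 ± 0.13, adjusted p = 3.79e-12). PVASCs and Ab-ASCs were not shown to differ (-0.26 ± 0.14, adjusted p = 0.128). The adjusted p was 0.00882 without the second Ab-ASC library (log2 fold change -0.42) and 0.0368 with no filter on low counts. Irf7 shares 45 bases with Phrf1 on the opposite strand, which had 1616 to 2348 reads where Irf7 had 131 to 198 in Ab-ASC and PVASC libraries, and the strand setting of the counting is unknown. The genes Gm21970 and Gm20388, which overlap Ifnar2 and Irf8, had 0 reads in all libraries.

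Irf8 (chr8:120736358-120756694, plus strand) encodes a factor best known from myeloid and lymphoid cells. It had 585, 625 and 635 reads in Sub-ASCs, 70, 55 and 55 in Ab-ASCs, and 212, 179 and 190 in PVASCs, or 25.1, 24.6 and 24.2, 3.76, 2.44 and 2.45, and 6.48, 6.07 and 6.04 CPM. The groups did not overlap, and PVASCs lay between the other depots. The log2 fold changes were -1.99 ± 0.11 (adjusted p = 6.23e-09) for PVASC against Sub-ASC and -3.11 ± 0.13 (adjusted p = 3.55e-10) for Ab-ASC against Sub-ASC. Irf8 was also the member that differed most between PVASCs and Ab-ASCs, by 2.18 times (log2 fold change 1.12 ± 0.14, adjusted p = 3.97e-05).

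Compared per length, the order of the members changed between depots. The length was that listed with the counts, the same in every depot. For Irf7 its 3776 bases are the whole span of the gene. The levels of different genes within a depot therefore depend on these lengths. In Sub-ASCs the 3 highest were factors, Irf1 at 78.1 ± 3.66 FPKM, Irf7 at 56 ± 2.22 and Stat2 at 47.8 ± 1.19. They were followed by Ifnar2 at 39.4 ± 0.554, Ifngr1 at 31 ± 0.948, Ifnar1 at 27.6 ± 0.335, Ifngr2 at 22.1 ± 0.518, Irf9 at 12.5 ± 0.385 and Irf8 at 3.42 ± 0.0688, with no overlap between neighbours. In Ab-ASCs the 4 receptor chains came first, with Ifngr2 at 38.7 ± 2.27 FPKM, Ifnar1 at 21.3 ± 0.41, Ifnar2 at 17.3 ± 1.1 and Ifngr1 at 15.5 ± 0.49. Irf1 followed at 5.18 ± 0.415, and Irf9 at 2.14 ± 0.208, Stat2 at 2.03 ± 0.0206 and Irf7 at 1.85 ± 0.403 overlapped each other above Irf8 at 0.38 ± 0.0894. In PVASCs the order was Ifngr2 at 40.3 ± 0.771 FPKM, Ifnar1 at 19.2 ± 0.298, Ifngr1 at 14.5 ± 0.298 and Ifnar2 at 13.3 ± 0.511. Then came Irf1 at 4.17 ± 0.0652, Stat2 at 3.91 ± 0.086 and Irf9 at 3.58 ± 0.211, with Irf7 at 1.79 ± 0.12 and Irf8 at 0.959 ± 0.0402 last. No library of one of these PVASC neighbours overlapped those of the next, although Stat2 and Irf9 differed by little more than their SDs.

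Set against all genes, the receptor chains lay within the common range of differences and 3 factors lay outside it. For PVASC against Sub-ASC, 3 of 4 receptor chains were lower and 1 was higher, and 5 of 5 factors were lower, where 70.4% of all genes were called, 35.7% lower and 34.7% higher. Lower by a log2 fold change of -1 or less were 2 chains and 5 factors, where 16.6% of all genes were. The median log2 fold change was -0.97 over the chains and -3.77 over the factors, where it was -0.01 over all genes, of which the 5th and 95th percentiles were -3.06 and 2.77. Stat2, Irf1 and Irf7 lay below that 5th percentile, with 3.66%, 2.74% and 2.16% of genes at or below them.

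For Ab-ASC against Sub-ASC the counts were the same, 3 chains lower, 1 higher and 5 factors lower, where 75.3% of all genes were called, 38.3% lower and 37% higher. Lower by a log2 fold change of -1 or less were 1 chain and 5 factors, where 21.3% of all genes were. The medians were -0.62 over the chains and -3.84 over the factors, where all genes had -0.03, with 5th and 95th percentiles of -3.28 and 2.61. The Sub-ASC libraries are shared by both comparisons, so that they are not independent.

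For PVASC against Ab-ASC, 4 of 4 chains were lower, and 3 factors were higher, 1 was lower and 1 did not pass, where 56.9% of all genes were called, 32.1% lower and 24.7% higher. The median was -0.35 over the chains and 0.52 over the factors, where all genes had -0.06, with 5th and 95th percentiles of -1.12 and 1.73. No member lay outside that range. Leaving out 1 library at a time gave 9 members against Sub-ASCs in both comparisons each time, and 7 to 9 members between PVASCs and Ab-ASCs.

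**Figure D3:**
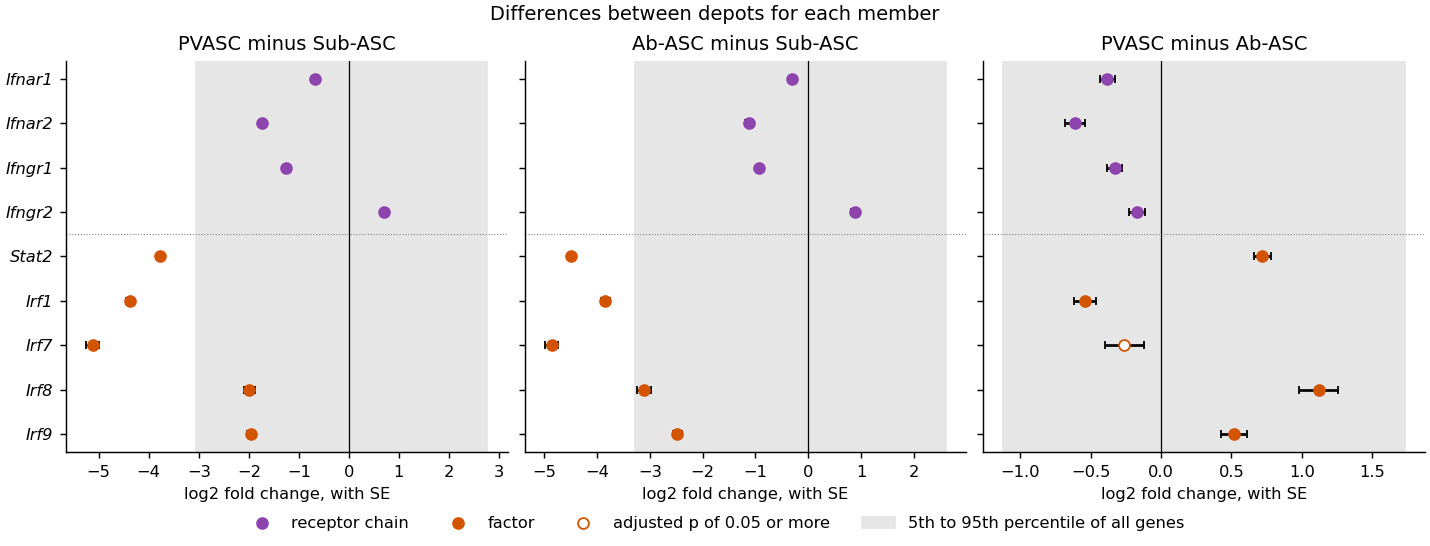
log2 fold change with SE of each member in the 3 comparisons, receptor chains above the dotted line and factors below it; open symbols missed the threshold and grey marks the 5th to 95th percentile of all genes tested. Against Sub-ASCs, Stat2, Irf1 and Irf7 lie left of the grey band, from -5.12 to -3.77 in PVASCs, and all receptor chains lie inside it.

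Among the ligands, reads were counted for very few. Of 21 interferon genes only Ifng, which encodes interferon gamma, passed the filter. It had 64, 49 and 56 reads in Sub-ASCs, none in any Ab-ASC library, and 0, 17 and 0 in PVASCs. With 3 reads per library as the limit that a count of 0 allows, Ifng was at least 15.9-fold higher in Sub-ASCs (2.27 CPM) than in Ab-ASCs. It was lower in PVASCs than in Sub-ASCs (log2 fold change -3.59 ± 0.74, adjusted p = 0.00145), a call that DESeq2 did not make (adjusted p = 0.21), and all of its PVASC reads came from the second library. Without that library the PVASC reads were 0. Ifng passed the filter through its Sub-ASC reads alone, so that the filter favoured a call in this direction. Ifnz was the only other ligand with 3 reads in a library, at 3, 1 and 1 in Sub-ASCs, 0 in Ab-ASCs and 0, 1 and 3 in PVASCs. Ifnb1, encoding interferon beta, had 1 read in all 9 libraries together, so that a difference in it was not detectable at this depth.

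Interferon gamma is made mainly by lymphoid cells, and 6 markers of such cells summed to 2.79 to 3.36 CPM in Sub-ASCs, 0.0537 to 0.444 in Ab-ASCs and 0.0917 to 0.272 in PVASCs. With 4 dendritic markers added, the sum of the 10 was 7.07 to 8.89 CPM in Sub-ASCs, 1.82 to 3.22 in Ab-ASCs and 0.915 to 1.24 in PVASCs, with 1, 3 and 4 of the 10 at 0 reads throughout a group. Of the 5 that could be tested, 4 were lower and 1 was higher against Sub-ASCs in each comparison, where 70.4% (PVASC) and 75.3% (Ab-ASC) of all genes were called. Of these, Cd79a, Ms4a1 and Nkg7 passed the filter on low counts through their Sub-ASC reads alone, and Xcr1 through its Ab-ASC reads. The filter thus favoured the direction of their calls, and the count is only a description. Ms4a1 of B cells and Nkg7 of cytotoxic cells had 19 to 32 and 13 to 20 reads in Sub-ASC libraries and at most 2 in any other. Of the dendritic markers, named after their values were seen, Itgax, also of macrophages, was at 4.81 ± 0.643 CPM in Sub-ASCs, 1.21 ± 0.617 in Ab-ASCs and 0.562 ± 0.196 in PVASCs, and Xcr1, the one that was higher outside Sub-ASCs, at 0.052 ± 0.0602, 0.934 ± 0.31 and 0.319 ± 0.0478. Cd3e, a defining gene of T cells, had 7 reads in each Sub-ASC library and 0 elsewhere. The part of these cells in the levels of Ifng and of the members was not tested.

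**Figure D4:**
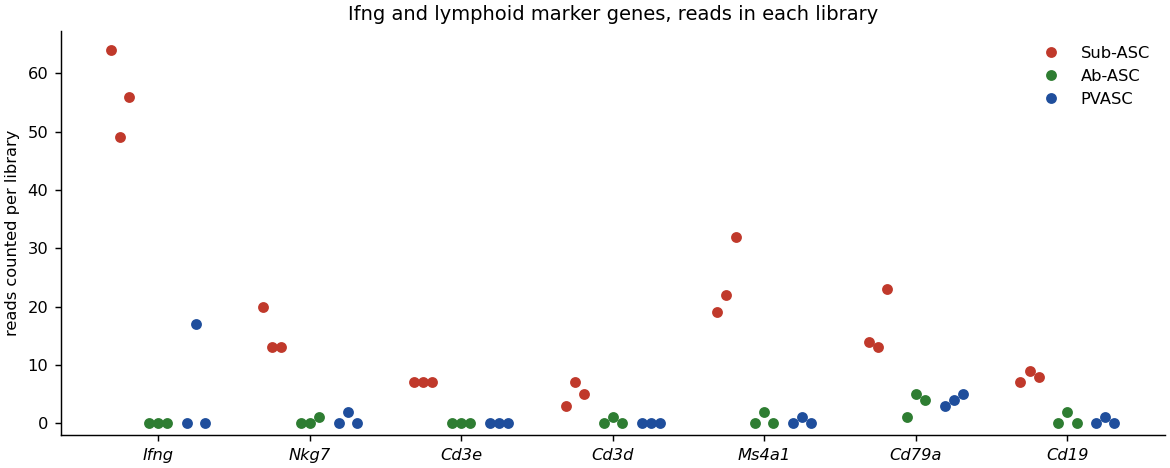
Reads counted in each library for Ifng and 6 marker genes of lymphoid cells; each dot is a library, coloured by depot. Ifng lies at 49 to 64 reads in Sub-ASCs and at 0 elsewhere except for 17 in 1 PVASC library, and the markers lie at 32 reads or fewer.

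Markers of other cell types were also compared, among them haematopoietic cells, which carry Irf8. Of 14 haematopoietic markers, 11 were lower and 2 higher for PVASC against Sub-ASC, where 35.7% and 34.7% of all genes were, and 12 were lower and 2 higher for Ab-ASC against Sub-ASC, where 38.3% and 37% were, with medians of -0.98 and -0.77. None was at 0 reads in a whole group. Their sum was 345 to 350 CPM in Sub-ASCs, 354 to 454 in Ab-ASCs and 345 to 355 in PVASCs. Lyz2 of macrophages, picked out after its values were seen, gave 160 to 164, 238 to 317 and 246 to 252 CPM of it, and the other 13 markers 181 to 187, 116 to 137 and 98.9 to 103 CPM. Cd68 of macrophages was at 32.8 ± 1.3, 23.1 ± 2.63 and 11.6 ± 0.607 CPM, and Fcer1g, an Fc receptor subunit, at 13.6 ± 2.56, 4.58 ± 0.853 and 4.88 ± 0.254. Ptprc, the pan-leukocyte gene for CD45 and the one that differed most, was at 8.94 ± 1.01 CPM in Sub-ASCs, 1.41 ± 0.249 in Ab-ASCs and 2.81 ± 0.476 in PVASCs, the same order as Irf8. For PVASC against Ab-ASC, only 2 of the 14 markers were higher, 5 were lower and 7 did not pass. Of all genes, 24.7% were higher and 32.1% lower. The sum of 6 endothelial markers was 176 to 191 CPM in Sub-ASCs, 63.7 to 66.2 in Ab-ASCs and 764 to 768 in PVASCs, and that of 6 mesothelial markers 1.26 to 2.28, 92.5 to 98.3 and 39.4 to 40.5 CPM. Of the endothelial markers, Emcn was at 20.2 ± 1.44, 10.6 ± 1.29 and 279 ± 6.06 CPM, Tie1 at 9.07 ± 0.536, 2.76 ± 0.485 and 49.3 ± 3.54, Pecam1 at 45.3 ± 1.71, 12.5 ± 1.02 and 180 ± 2.26, and Tek at 46 ± 3.54, 10.1 ± 0.719 and 14.8 ± 0.493. None of them was at 0 reads in a whole group, and 2 mesothelial markers, Upk1b and Lrrn4, were at 0 in Sub-ASCs. The part of these cells in the members' differences was not tested.

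The kinases that sit on the receptors were lower outside the subcutaneous depot. All 4 Janus kinases were lower in both comparisons with Sub-ASCs, where 35.7% (PVASC) and 38.3% (Ab-ASC) of all genes were lower. Jak1, which serves both receptors, was at 955 ± 46.8 CPM in Sub-ASCs, 401 ± 20.5 in Ab-ASCs and 306 ± 7.9 in PVASCs. Jak2, the partner of IFNGR2, was at 214 ± 20.5, 101 ± 29.9 and 96.9 ± 2.57 CPM, and Tyk2, the partner of IFNAR1, at 42.2 ± 2.41, 30.4 ± 1.51 and 29.8 ± 1.46. Jak3, which serves cytokine receptors of the common gamma chain, was at 21.5 ± 0.732, 6.05 ± 0.607 and 13.9 ± 1.65 CPM. The median log2 fold change over the 4 was -0.89 for PVASC and -1.17 for Ab-ASC against Sub-ASC. Between PVASCs and Ab-ASCs, where 56.9% of all genes were called, Jak3 was higher, Jak1 was lower and Jak2 and Tyk2 did not pass.

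The receptor of type III interferons consists of Ifnlr1 and of Il10rb, which also serves interleukin 10. Ifnlr1 had at most 7 reads in any library and was not tested. Il10rb was at 26.6 ± 0.183 CPM in Sub-ASCs, 35.4 ± 3.45 in Ab-ASCs and 21.3 ± 0.12 in PVASCs. Its log2 fold change was -0.32 ± 0.07 (adjusted p = 0.00181) for PVASC against Sub-ASC and 0.41 ± 0.07 (adjusted p = 0.00025) for Ab-ASC against Sub-ASC.

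Of 5 other STATs, Stat4 was too low to test, and 4 were lower in PVASCs and 3 in Ab-ASCs than in Sub-ASCs, beside the same shares of all genes. Stat5a, which serves growth hormone and prolactin, was at 88.7 ± 2.92, 21.4 ± 0.552 and 15.8 ± 0.217 CPM, and its relative Stat5b at 114 ± 0.261, 38.4 ± 1.41 and 37.6 ± 0.936. Stat3, of the interleukin 6 family, was at 604 ± 5.85, 290 ± 8.58 and 274 ± 3.72 CPM. Stat6, of interleukin 4, was at 152 ± 3.05, 158 ± 12.4 and 105 ± 1.29 CPM and did not pass between Ab-ASCs and Sub-ASCs (log2 fold change 0.06, adjusted p = 0.393).

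Of 4 other IRFs, Irf2 and Irf4 were lower in both comparisons with Sub-ASCs whereas Irf3 and Irf5 were not, where 35.7% (PVASC) and 38.3% (Ab-ASC) of all genes were lower. Irf2, which competes with IRF1 for its sites, was at 67 ± 1.44 CPM in Sub-ASCs, 15.5 ± 0.678 in Ab-ASCs and 16.7 ± 0.929 in PVASCs. Irf4, a factor of lymphoid and myeloid cells and of adipocytes, had 123 to 132 reads in Sub-ASC libraries, 3 to 6 in Ab-ASCs and 0 to 4 in PVASCs. It passed the filter through its Sub-ASC reads alone. Irf3, which is held ready in the cytoplasm for nucleic acid sensors, was at 30.3 ± 3.26, 35.3 ± 1.36 and 33.8 ± 1.39 CPM, with a log2 fold change of 0.16 (adjusted p = 0.095) in PVASCs and 0.22 (adjusted p = 0.0274) in Ab-ASCs. Irf5, a macrophage factor, was at 6.97 ± 0.598, 12.8 ± 1.58 and 7.17 ± 0.45 CPM, higher in Ab-ASCs and not shown to differ in PVASCs (adjusted p = 0.748).

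Of 13 genes that restrain this signalling, 8 were lower, 3 higher and 2 did not pass in each comparison with Sub-ASCs, so that 11 of 13 were called where 70.4% (PVASC) and 75.3% (Ab-ASC) of all genes were. Usp18, which blocks the IFNAR2 chain, was at 38.8 ± 2.01 CPM in Sub-ASCs, 2.01 ± 0.366 in Ab-ASCs and 3.4 ± 0.0782 in PVASCs. Socs1, an inhibitor of Janus kinases, was at 73.5 ± 7.85, 5.88 ± 0.263 and 6.89 ± 0.678 CPM, and Socs3 at 455 ± 26.4, 58.9 ± 2.68 and 65.5 ± 3.52. The phosphatase gene Ptpn6, of blood cells, was at 11.1 ± 0.664, 1.77 ± 0.512 and 1.96 ± 0.137 CPM.

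The remaining inhibitors were lower by less, higher or not called. Cish, Ptpn1, Ptpn2 and Pias1 were lower in both comparisons, with log2 fold changes from -1.44 to -0.54. Socs2, a target of growth hormone signalling, was higher, at 35.8 ± 0.996 CPM in Sub-ASCs, 162 ± 8.88 in Ab-ASCs and 76.1 ± 3.23 in PVASCs, as was the phosphatase gene Ptpn11 at 210.0 ± 5.23, 339 ± 4.89 and 269 ± 5.78. Pias2 was higher in PVASCs (0.17, adjusted p = 0.0257) and Pias4 in Ab-ASCs (0.26, adjusted p = 0.00667), and Pias3 passed in neither. Between PVASCs and Ab-ASCs, 3 inhibitors were higher, 3 lower and 7 did not pass, where 56.9% of all genes were called.

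All 16 interferon target genes listed, of type I and of gamma response, were lower in both depots than in Sub-ASCs, each by a log2 fold change of -1 or less, as were 16.6% (PVASC) and 21.3% (Ab-ASC) of all genes. The list was chosen with earlier results of these data known, so that this count is only a description. Their sum was 3510 to 3580 CPM in Sub-ASCs, 146 to 164 in Ab-ASCs and 152 to 153 in PVASCs. The median log2 fold change was -4.34 in PVASCs and -6.03 in Ab-ASCs, the latter -5.67 with genes of 3 reads or fewer set to their limit. Cxcl9, a chemokine gene of the interferon gamma response, had 10194 to 12572 reads in Sub-ASC libraries, at most 1 in Ab-ASCs and at most 3 in PVASCs. It passed the filter through its Sub-ASC reads alone. Psmb9, a gene of the immunoproteasome, was at 130 ± 9.5 CPM in Sub-ASCs, 1.37 ± 0.138 in Ab-ASCs and 0.785 ± 0.204 in PVASCs, and Ifi44, of the type I response, at 54.6 ± 4.88, 0.258 ± 0.147 and 1.54 ± 0.291. Between PVASCs and Ab-ASCs, 8 targets were higher, 4 lower and 4 did not pass, where 24.7% of all genes were higher and 32.1% lower. Ifit3 was the one most above Ab-ASCs, by 2.58 ± 0.18 on the log2 scale (adjusted p = 1.78e-07).

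**Figure D5:**
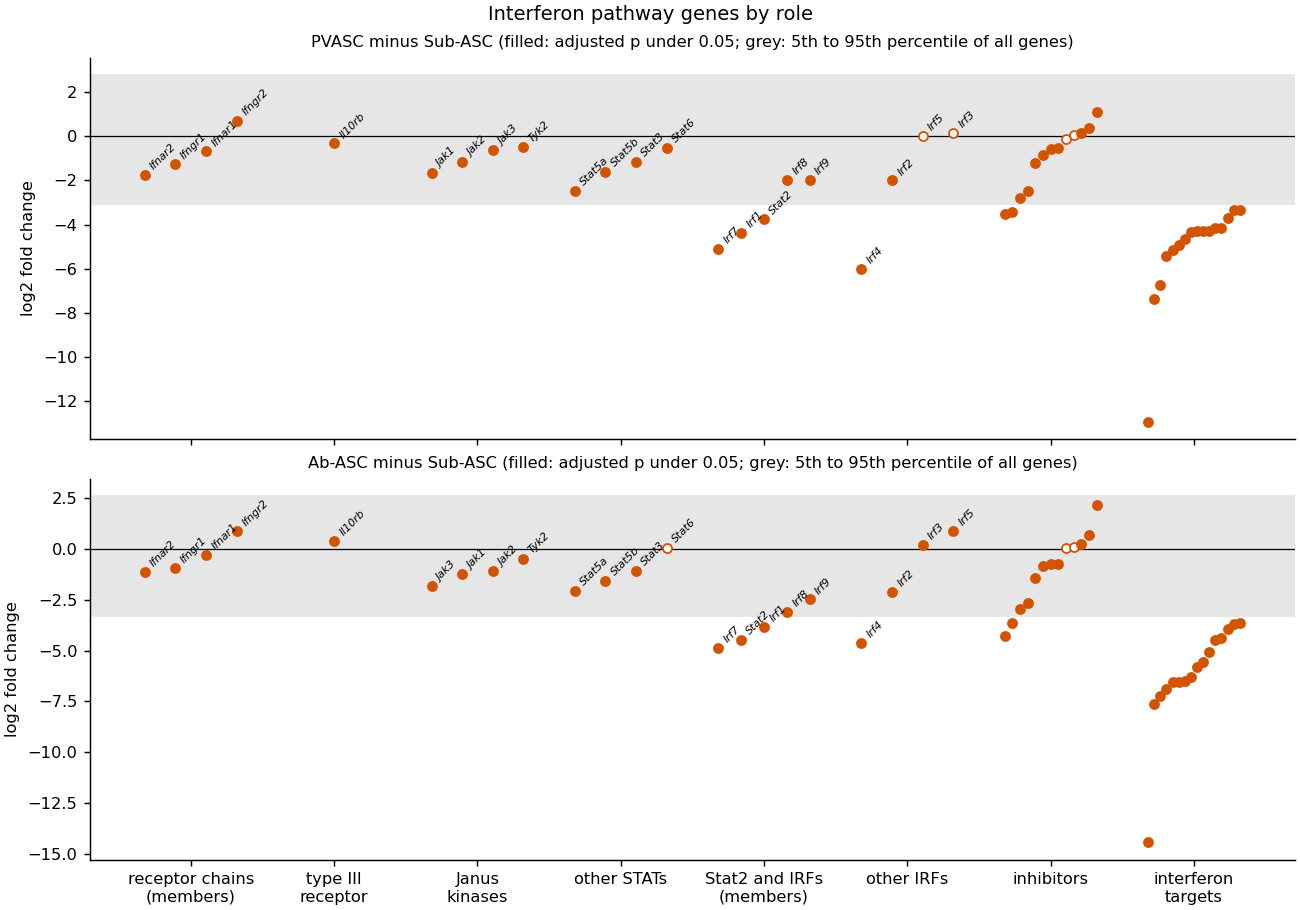
log2 fold change against Sub-ASC of every tested gene of the pathway lists by role, ligands left out, PVASC above and Ab-ASC below; filled symbols passed the threshold, grey marks the 5th to 95th percentile of all genes, and Cxcl9, the lowest target in both panels, rests on 3 reads or fewer outside Sub-ASCs. Receptor chains and Janus kinases lie inside the grey band, whereas Stat2, Irf1, Irf7, Irf4, the inhibitors Usp18 and Socs1 and all 16 targets lie below it.

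The genes whose profile over the 9 libraries was most like that of each member were found by the root mean square difference of centred log2 CPM. For the receptors the nearest genes were Supt6 for Ifnar1 (0.0312 log2 units), Ebp for Ifnar2 (0.0498), Sgce for Ifngr1 (0.0347) and Chchd3 for Ifngr2 (0.041). For the factors they were Cxcl12 for Stat2 (0.0836), Gpx3 for Irf1 (0.0466), Htra3 for Irf7 (0.183), Cyb561 for Irf8 (0.14) and Dbp for Irf9 (0.082). Next in order came Stt3b and Atg2b for Ifnar1, Acvr1b and As3mt for Ifnar2, Sh3pxd2b and Itsn1 for Ifngr1, and Slc25a3 and Pus7l for Ifngr2. For the factors came Gas6 and Irgm1 for Stat2, Lgals3bp and Gbp2 for Irf1, Lbp and Fcer1a for Irf7, Mettl27 and Csf3 for Irf8, and Snrk and Pyroxd2 for Irf9. With 3 groups of 3 libraries, such likeness rests mostly on the same 3 group levels, and ranking by Pearson correlation gave 0 or 1 of the same 3 genes.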

How the data were processed

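Raw counts per gene were deposited by the authors for 9 bulk RNA-seq libraries, with gene length and position and without normalization. The submitters' processing notes name CASAVA 1.8, Bowtie 0.12.2, featureCounts 1.5.0-p3 and the builds mm8 and mm10, without roles. The kit was NEBNext Ultra, and the strand setting of the counting is not given in the sources used here. The positions of 53499 of 54532 genes and of 9 of 9 members equalled those of GENCODE M21 (GRCm38).

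Groups came from the labels. Genes passing filterByExpr were tested in 1 fit of all libraries without covariates by edgeR 4.0.16 (limma 3.58.1, R 4.3.3; TMM, quasi-likelihood test), with Benjamini-Hochberg adjustment over 16526 genes and a threshold of 0.05. The procedure was also run on simulated counts in which few genes differed, and in PVASCs alone. These data are unlike that setting, so that the simulation is no check of them. To compare genes per length, FPKM was computed from the deposited counts, the listed gene lengths and the library totals. A count of 0 was given a limit of 3 reads per library, for counting error only.

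2 listed genes and 1 promoter are not reported here. The members and lists were chosen with earlier results of these data known. Named were all members, every tested gene of the lists of kinases, receptors, STATs, IRFs and inhibitors, and ligands with 3 reads in a library. Of the target and marker lists, the 2 tested genes with the largest fitted difference were named in each comparison with Sub-ASCs. Also named were genes overlapping a member and the 3 genes most like each member. Ifnb1, Ifnlr1, Stat4, Cd3e, Cd79a, Ifit3 and the genes picked after their values were seen were named outside these rules. Motifs and plots used Python 3.11.15, pandas 2.3.3 and matplotlib 3.10.9. DESeq2 1.42.0 and the other alternatives are given in the closing section.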

Additional observations from a re-analysis of the deposited data

How the results depend on the processing

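The alternatives were DESeq2, RLE size factors, no filter on low counts, a minimum of 10 reads per library, separate fits for each pair of groups, a replicate block, an added threshold of 1 on the size of the log2 fold change, glmTreat against a log2 fold change of 1, FPKM, and each library left out in turn. Against Sub-ASCs every member kept its direction in all of them, and every factor its call. The added threshold left 5328 genes for PVASC against Sub-ASC, 6241 for Ab-ASC against Sub-ASC and 2551 for PVASC against Ab-ASC, and in that order 2, 1 and 0 receptor chains, with 1 member, a factor, in the last. By glmTreat there were 4167, 4661 and 1304 genes, and 2, 1 and 0 receptor chains, with 0 members and 0 factors in the last. Between PVASCs and Ab-ASCs 4088 genes were higher and 5308 lower, which became 4305 and 4149 in the separate fit and 1673 and 878 with the added threshold. Leaving out 1 library gave 13665 to 14419 genes among the 3 groups, 10954 to 12736, 11976 to 12714 and 8294 to 9675 genes in the 3 comparisons, 9 members against Sub-ASCs and 7 to 9 between PVASCs and Ab-ASCs. Between PVASCs and Ab-ASCs, Ifngr2 ranged from -0.23 to -0.09 and missed the threshold in 11 of 16 alternatives, and in FPKM the log2 ratio was 0.06. Without TMM, in FPKM, 18 of the 27 member ratios moved by more than the spread between libraries, those between PVASCs and Ab-ASCs to -0.15 for Ifnar1, -0.38 for Ifnar2, -0.1 for Ifngr1 and -0.31 for Irf1, and to 0.95 for Stat2 and 0.74 for Irf9. The replicate numbers did not pair the libraries (correlations of -0.0514 to 0.095), and with the replicate block 9, 9 and 8 members and 11458, 12302 and 9183 genes were called. Tests of Ifng under these alternatives were added after its reads were seen, and DESeq2 lost its call for PVASC against Sub-ASC (-3.55, adjusted p = 0.21). The genes most like each member changed with Pearson correlation, which kept 0 or 1 of 3. The length of a gene is the same in every library, so that the FPKM ratios between groups differ from those of CPM only through the scaling of the libraries. Except there and where the alternative itself is stricter, the cause of these changes was not tested.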
